A study of Mus musculus with 38 samples.

Results

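The promoters of Rbm3 and Cirbp were followed through fasting-induced torpor in the soleus muscle of C57BL/6J mice. A CAGE cluster, a group of neighbouring transcription start sites, was taken as a promoter of either gene when its highest peak lay on the same strand and within 500 bp of a 5′ end that GENCODE M21 annotates for it. This rule found 2 of the 10819 clusters, 1 for Rbm3 and 1 for Cirbp, and a window of 100 bp found the same number. Each of the 38 libraries came from 1 mouse and counts capped 5′ ends (tags) of unamplified RNA by nAnT-iCAGE. Experiment 1 has 28 libraries in 6 groups and experiment 2 has 10 libraries in 3 groups, sequenced in separate runs.

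Pre mice were fed ad libitum at low ambient temperature (TA) and sampled on day 1, with 4 libraries in experiment 1 and 2 in experiment 2. The Mid group, 8 and 5 libraries, had its food removed at low TA, which induces torpor, and was sampled on day 2. According to the study the metabolic rates of the Mid mice varied widely, and some were between bouts of torpor when sampled. Post mice, 4 and 3 libraries, were fasted in the same way, refed and sampled on day 3. Experiment 1 also holds 3 groups in which torpor was prevented on day 2, each with 4 libraries. The HiT mice were kept at high TA without food according to the study's methods, whereas the series description states that they had food. The Fed mice kept their food at low TA according to the methods, whereas their sample labels read starvation. The Dep mice were fasted at low TA and kept out of torpor by gentle touching, so that handling goes with that group. All mice were wild type, and 1 or both soleus muscles were used per mouse.

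Rbm3 and Cirbp are small RNA-binding proteins, each with an RNA recognition motif followed by a glycine-rich tail. They are the best known cold-shock proteins of mammals, since mild cooling of cells raises both and warming lowers them, and they bind mRNAs and affect their translation, stability and polyadenylation. In mice both also follow the daily rhythm of body temperature, and Rbm3 has been linked to the protection of synapses and of muscle mass.

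The Rbm3 promoter (ENSMUSG00000031167.16) lies on chromosome X from 8145639 to 8145804 on the minus strand of mm10. Its cluster is 166 bp wide, and its highest peak at 8145701 lies 4 bp upstream of an annotated 5′ end at 8145697. The gene has 11 annotated transcripts with 9 distinct 5′ ends, of which 7 fall inside the cluster, so that CAGE does not separate these isoforms. Rbm3os, the antisense gene at the same locus, has no cluster, and CAGE tags keep their strand.

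The Cirbp promoter (ENSMUSG00000045193.13) lies on chromosome 10 from 80167711 to 80167896 on the plus strand. It is 186 bp wide, with the highest peak at 80167837, 3 bp upstream of an annotated 5′ end at 80167840. Of the 7 annotated 5′ ends of the gene 4 fall inside the cluster and 3 lie beyond the 500 bp window, where no cluster was found. The sequence before this peak is shown because it is the promoter whose level is described in each group, as given by RefSeq for GRCm38.p6 (the same assembly as mm10), chr10:80167589-80167847, plus strand. It runs from 248 bp before the highest peak to 10 bp past it, and the capitals mark CCAAT and GGGCGG on either strand.
Cirbp: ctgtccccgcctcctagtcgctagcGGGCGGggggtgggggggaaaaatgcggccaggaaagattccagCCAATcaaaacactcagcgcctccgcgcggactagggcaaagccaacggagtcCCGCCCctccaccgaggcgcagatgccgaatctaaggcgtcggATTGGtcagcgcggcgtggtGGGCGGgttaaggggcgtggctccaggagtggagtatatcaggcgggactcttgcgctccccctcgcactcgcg

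The stretch is 66% G and C. Over the whole RefSeq window, which runs on past the stretch shown, CCAAT (the box of the factor NF-Y) occurs 2 times, its first base 179 bp and 83 bp before the peak, the latter on the minus strand. GGGCGG (the GC box of Sp1 and related factors) occurs 3 times, 223, 126 and 63 bp before the peak, the middle one on the minus strand. No match overlaps another. On either strand CCAAT is found in 37.4% and GGGCGG in 35.7% of the 32851 RefSeq promoters of this length. TATAAA, found in 13.6% of them, TGACG, the core of the cyclic AMP element, found in 20.8%, and GAANNTTC, the core of the heat shock element, found in 7.86%, have no match in this window. RefSeq promoter sequences were not found for Rbm3.

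Both promoters were well covered. Tags per library at Rbm3 numbered 539 to 1426 in experiment 1 and 538 to 1457 in experiment 2, and those at Cirbp 1086 to 2347 and 694 to 2552. As TPM, tags scaled to the total of the library, Cirbp averaged 58.6 ± 12.1 (SD, n = 28) in experiment 1 and 89.0 ± 16.8 (n = 10) in experiment 2. Rbm3 averaged 36.9 ± 7.96 and 61.2 ± 8.71 TPM in the same libraries. Cirbp stood above 82.5% and Rbm3 above 73.2% of all clusters in experiment 1. CAGE counts 1 tag per RNA whatever its length, and the Cirbp cluster held more TPM than the Rbm3 cluster in all 38 libraries. The ratio of Rbm3 to Cirbp was between 0.445 (Fed 1) and 0.834 (Pre 4) in experiment 1 and between 0.547 (Mid 13) and 0.880 (Mid 12) in experiment 2. This order depends on a pseudogene copy of Rbm3, described next, whose tags added to those of Rbm3 exceed Cirbp in 9 libraries of experiment 1 (Pre 1, Pre 2, Pre 4, Mid 6, HiT 1, Fed 3 and Dep 1 to Dep 3).

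The tags of Rbm3 cannot be fully told from those of Rbm3-ps, a processed pseudogene on the minus strand of chromosome 1. Over its 465 annotated bases the pseudogene matches the Rbm3 transcript that starts at 8145697 at 462 positions (99.4%). Its cluster has its highest peak at 150266074, 75 bp upstream of the annotated pseudogene, and the 5′ untranslated part of that transcript is also 75 bases long, while the identity of the pair where the tags start was not measured. The Rbm3-ps cluster averaged 18.8 ± 3.66 TPM in experiment 1 and 4.86 ± 0.609 TPM in experiment 2. Its share of the summed Rbm3 and Rbm3-ps tags was 29.2% to 39.3% over the 28 libraries of experiment 1 and 6.29% to 8.68% over the 10 libraries of experiment 2, with no overlap. Summed, the pair of clusters averaged 55.7 ± 11.3 TPM in experiment 1 and 66.03 ± 9.01 TPM in experiment 2. The experiments were sequenced on different platforms, and the mice, the platform and the mapping cannot be told apart as sources of this difference. The level of Rbm3 is therefore compared only within an experiment, and changes are also given with both clusters summed. The share was alike in the 6 groups of experiment 1, with group means between 32.9% (Pre and Dep) and 35.8% (Fed).

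**Figure D1:**
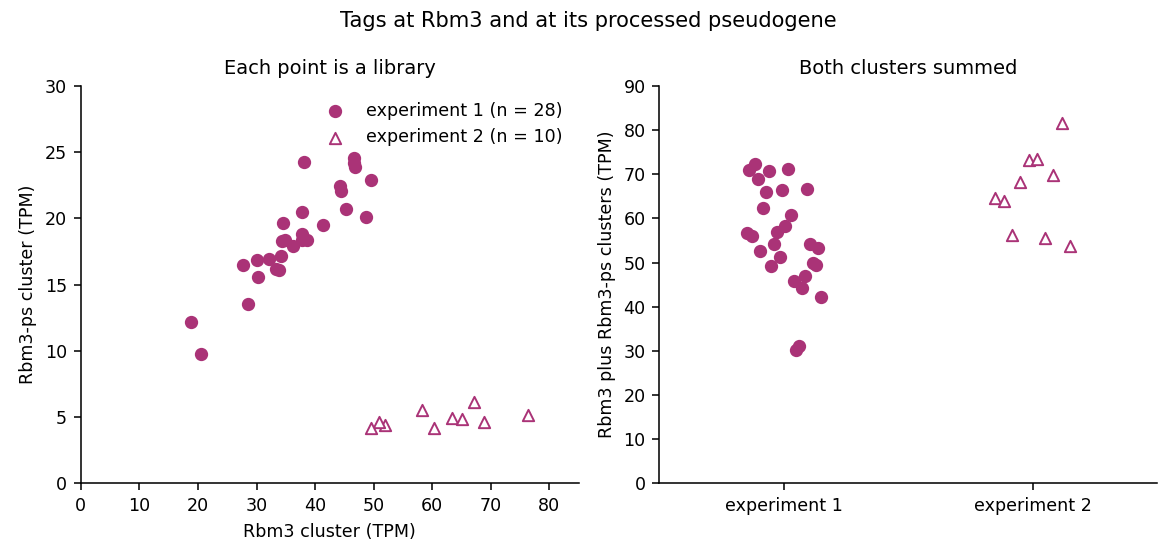
Left, TPM of the Rbm3 cluster (x axis) against TPM of the Rbm3-ps cluster (y axis), each point being 1 library of experiment 1 (filled circles, n = 28) or experiment 2 (open triangles, n = 10). Right, TPM of both clusters summed in each library. The Rbm3-ps cluster lies between 9.76 and 24.5 TPM in experiment 1 and between 4.18 and 6.13 TPM in experiment 2, while the summed values of the experiments overlap.

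Levels in the groups are given below as CPM, tags scaled to the total in clusters and corrected by TMM, which allows for a few very strong promoters taking a larger part of a library. This mattered here, because the 10 strongest clusters took 15.1% to 40.3% of the tags in clusters in experiment 1 (HiT 4 the highest), and TMM factors ran from 0.679 (HiT 4) to 1.21 (Fed 3). Libraries of experiment 1 held 18257657 to 39176649 tags in clusters and those of experiment 2 9359994 to 20914855. Slow-muscle genes (Myh7, Tnnt1, Tnni1, Tnnc1, Myl2) were all detected, with a summed level of 3289 to 5639 CPM over the libraries of experiment 1. As the libraries are from whole muscle, fewer cells of a type and less RNA per cell cannot be told apart.

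In experiment 1 the Rbm3 promoter had similar means in the Pre, Mid and Post groups and lower means in the HiT, Fed and Dep groups. The Pre libraries held 38.9, 42.7, 40.6 and 47.4 CPM. The 8 Mid libraries ranged from 36.0 to 49.2 with a median of 41.1. The Post libraries held 41.5, 45.0, 39.7 and 42.0. These 3 groups overlapped, and their means were 42.4 ± 3.70, 41.9 ± 4.49 and 42.0 ± 2.24. The HiT libraries held 36.9, 31.3, 24.4 and 29.03, a mean of 30.4 ± 5.22. The Fed libraries held 28.7, 32.8, 38.5 and 31.6, a mean of 32.9 ± 4.10, and the Dep libraries 38.5, 37.1, 33.8 and 37.4, a mean of 36.7 ± 2.02. Every HiT, Fed and Dep library lay below every Pre library, and only HiT 1, Fed 3, Dep 1, Dep 2 and Dep 4 lay above the lowest Mid library. The share of all clusters whose groups separate without overlap was not computed, here or in the comparisons below. The order of the means was Pre, Post, Mid, Dep, Fed and HiT, and no 2 neighbours in this order passed the test (lowest FDR = 0.26, edgeR).

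The Cirbp promoter had its highest levels in the Mid and Post groups. The Pre libraries held 57.1, 58.7, 62.8 and 56.9 CPM, a mean of 58.9 ± 2.75. Mid libraries ranged from 55.7 to 80.1 with a median of 68.6 and a mean of 69.0 ± 9.55, the widest spread of the 6 groups. Post libraries held 65.1, 69.9, 81.4 and 70.8, a mean of 71.8 ± 6.89, all above the Pre libraries. The HiT libraries held 49.3, 47.8, 48.4 and 54.8, a mean of 50.1 ± 3.23. The Fed libraries held 64.5, 63.2, 50.9 and 52.1, a mean of 57.7 ± 7.18, and the Dep libraries 53.1, 49.9, 48.0 and 57.2, a mean of 52.1 ± 4.05. All 4 HiT libraries lay below all 8 Mid libraries, whereas the Fed and Dep libraries overlapped with the Mid group. The order of the means was Post, Mid, Pre, Fed, Dep and HiT, and again no 2 neighbours passed the test (lowest FDR = 0.065, Mid against Pre, edgeR).

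**Figure D2:**
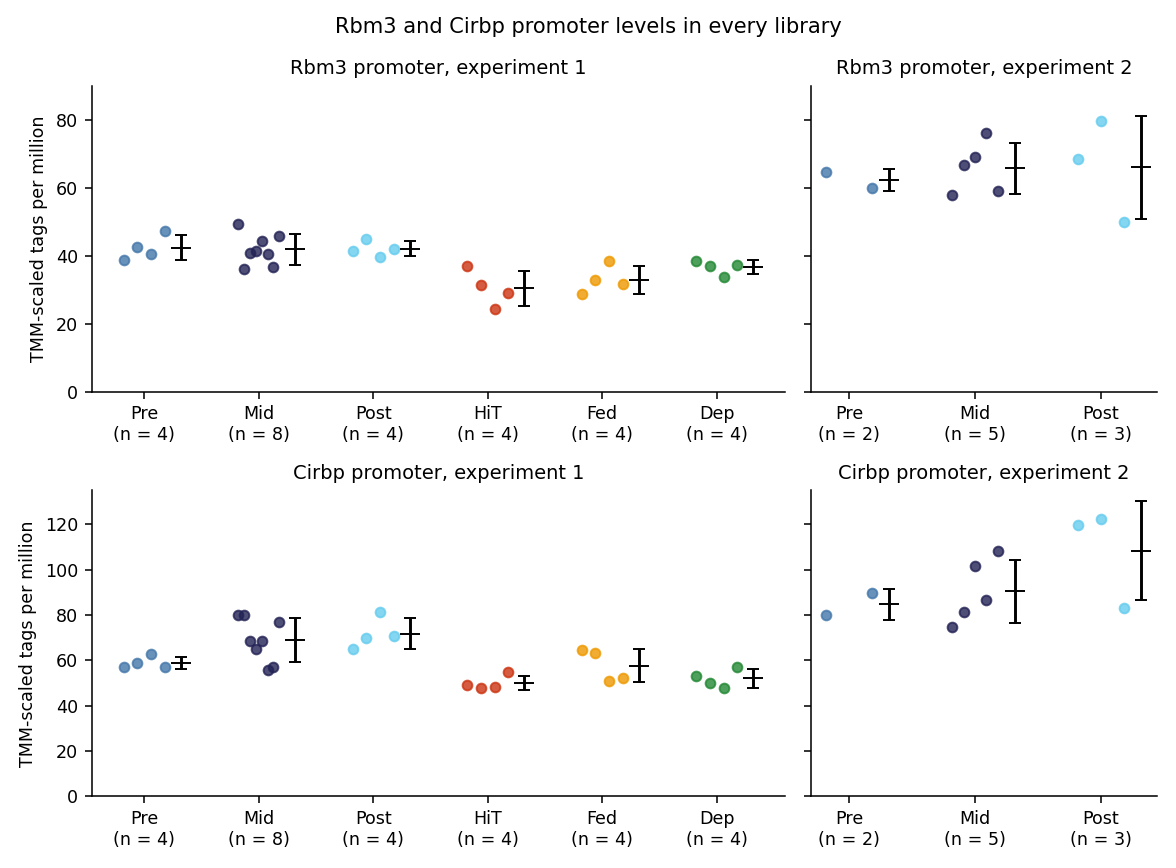
TMM-scaled CPM (y axis) of the Rbm3 (top) and Cirbp (bottom) promoters in each library, by group, for experiment 1 (left) and experiment 2 (right), with the group mean and SD as a black bar. In experiment 1 the HiT libraries of Cirbp sit between 47.8 and 54.8, below all Mid libraries, and Rbm3 lies between 36.0 and 49.2 in the Mid group and between 24.4 and 36.9 in the HiT group. Scaling was done within each experiment, so that levels are not compared between left and right.

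From the Pre to Mid, before and during fasting-induced torpor, neither promoter was called. Torpor, fasting and the sampling day change together in this comparison and cannot be told apart. Rbm3 differed by a log2 fold change of -0.02 (95% confidence interval -0.21 to 0.17, FDR = 0.91, edgeR quasi-likelihood F test with Benjamini-Hochberg adjustment over all clusters). The Mid libraries of Rbm3 lay on both sides of the Pre libraries. For Cirbp the log2 fold change was 0.23 (interval 0.04 to 0.42, FDR = 0.065), and 6 of the 8 Mid libraries lay above all Pre libraries, while Mid 6 and Mid 7 lay among or below them. In this comparison 30.2% of the 10776 clusters tested were called. Without Mid 6 or without Mid 7, the lowest Mid libraries, the Cirbp change passed the threshold (lowest FDR over all libraries left out in turn = 0.017). It stayed uncalled in 26 of the 28 fits with a library left out (highest FDR = 0.14). Of 8 alternative fits 7 also left it uncalled (highest FDR = 0.51, without TMM), and the replicate block called it (FDR = 0.021).

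From the Mid to Post, on recovery with food, neither promoter was called, while 35% of all clusters were. The log2 fold change was 0.01 for Rbm3 (interval -0.19 to 0.20, FDR = 0.97, edgeR) and 0.06 for Cirbp (interval -0.13 to 0.25, FDR = 0.66). The Post and Pre groups were not called as different either, at -0.01 for Rbm3 (FDR = 0.98) and 0.29 for Cirbp (FDR = 0.21), a comparison in which 1.85% of clusters were called. Although the Post libraries of Cirbp all lay above the Pre libraries, the adjusted test did not separate them.

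Both promoters were higher in the Mid than in the HiT group, which was fasted but kept warm. Rbm3 was 1.38-fold higher (log2 fold change 0.46, SE 0.10, interval 0.26 to 0.66, FDR = 0.000407, edgeR), with 6 of 8 Mid libraries above all HiT libraries. Cirbp was also 1.38-fold higher (0.46, SE 0.09, interval 0.27 to 0.66, FDR = 0.000356), with no overlap. These are modest changes among many, since 41% of all clusters were called from the HiT to Mid, 19.2% as higher in the Mid, and 25.2% and 25.1% of clusters had a larger absolute log2 fold change than Rbm3 and Cirbp. With the Rbm3 and Rbm3-ps tags summed the log2 fold change was 0.44 (FDR = 0.000249, edgeR). Both calls held in each alternative fit, with log2 fold changes of 0.44 to 0.53 for Rbm3 and 0.43 to 0.57 for Cirbp, and without any 1 of the 28 libraries (0.39 to 0.60 and 0.43 to 0.54).

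The HiT libraries also differed in the levels of cell type markers. All 4 macrophage markers with a cluster (Cd68, Csf1r, Cd163, Mrc1) were higher in HiT than in Mid, and their summed level was 57.8 to 121 CPM in the HiT and 25.6 to 39.3 in the Mid libraries. Adgre1 has no cluster. The 4 neutrophil markers summed to at most 0.850 CPM in the HiT libraries. Of the 5 slow-muscle genes 2 and of the 6 fast-muscle genes 2 were lower in HiT. Of all clusters 41% were called in this comparison, 19.2% as higher in the Mid, and counts of so few muscle genes do not stand out from these shares. The part of the marker differences in the levels of Rbm3 and Cirbp was not tested.

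The HiT group set against Pre, both sampled without torpor, showed the same direction. Rbm3 fell by 0.48 on the log2 scale from the Pre to HiT (interval -0.70 to -0.26, FDR = 0.00123, edgeR), and the groups did not overlap. In this comparison 33.4% of clusters were called, 14.9% as lower in HiT. Cirbp was at -0.23 (interval -0.45 to -0.01, FDR = 0.097), not called, although its HiT and Pre libraries did not overlap. It was called with upper-quartile scaling (FDR = 0.029) and with the 2 groups alone (FDR = 0.022). The other 6 of 8 alternative fits left it uncalled (highest FDR = 0.11), as did all 28 fits with a library left out (FDR = 0.054 to 0.21). From the HiT to Post, after torpor and refeeding, both were higher, Rbm3 by 0.47 (FDR = 0.00181) and Cirbp by 0.52 (FDR = 0.000563), again without overlap, beside 29.2% of clusters called and 12.5% called as higher in Post, and Rbm3 was not called without TMM (FDR = 0.059).

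Against the Fed group, which had food at low TA, both promoters were higher in the Mid group. Rbm3 was 1.27-fold higher in Mid than in Fed (log2 fold change 0.35, SE 0.09, interval 0.15 to 0.54, FDR = 0.00590, edgeR). Cirbp was 1.20-fold higher (0.26, SE 0.09, interval 0.07 to 0.45, FDR = 0.0334). Here 35.2% of clusters were called, 16.6% as higher in the Mid, and 31.8% and 43.5% of clusters had a larger absolute change than Rbm3 and Cirbp. The call for Cirbp was lost without Mid 1, Fed 3 or Fed 4 (highest FDR = 0.12), and both calls were lost without TMM scaling (FDR = 0.41 for Rbm3 and 0.49 for Cirbp), which moved the median of all clusters from 0.00 to -0.12 on the log2 scale. The Cirbp call was also lost with upper-quartile scaling, with the 2 groups alone and with all 38 libraries (highest FDR = 0.14 of these). The hemoglobin genes, markers of red blood cells, were higher in Fed (4 of 4, Alas2 having no cluster), with Fed 2 far above the rest and a summed level of 2813 to 13750 CPM against 2989 to 4237 in the Mid libraries, and their part in this result was not tested.

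The Fed mice had food at low TA as the Pre mice had, and were sampled a day later. Rbm3 fell by 0.36 on the log2 scale from the Pre to Fed (interval -0.59 to -0.14, FDR = 0.0325, edgeR) without overlap, beside 11.2% of clusters called and 5.32% called as lower. Cirbp was at -0.03 (interval -0.25 to 0.19, FDR = 0.89). The call for Rbm3 was lost when any of 7 libraries was left out, the 4 Pre libraries, Fed 1, Fed 2 or Fed 4 (highest FDR = 0.13), and without TMM (FDR = 0.56) or with the 2 groups alone (FDR = 0.060). From the Fed to Post, Rbm3 was higher by 0.35 (FDR = 0.0227) and Cirbp by 0.32 (FDR = 0.0352), in both cases without overlap and beside 22.2% of clusters called and 10.7% called as higher in Post. The Rbm3 call was lost without Post 2, Fed 1 or Fed 2 (highest FDR = 0.090), and that of Cirbp without Post 2, Post 3, Fed 3 or Fed 4 (highest FDR = 0.13), and both without TMM (FDR = 0.50 and 0.41).

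The Dep mice were fasted at the same low TA as the Mid mice but kept from torpor. Cirbp fell by 0.41 on the log2 scale from the Mid to Dep (SE 0.09, interval -0.60 to -0.21, FDR = 0.0271, edgeR), a 1.32-fold lower level. Few clusters changed here, with 2.03% called and 0.872% called as lower, and Cirbp ranked 87 by p-value among 10776. Rbm3 was at -0.19 (interval -0.39 to 0.00, FDR = 0.27), not called, and with Rbm3-ps tags summed at -0.20 (FDR = 0.19). The Cirbp call was lost without Mid 2, Dep 1, Dep 2 or Dep 3 (highest FDR = 0.11) and when the Dep and Mid groups were fitted alone (FDR = 0.15), where 2 clusters in all were called, as well as without TMM (FDR = 0.21) and with all 38 libraries (FDR = 0.058). The neutrophil markers summed to 133 CPM in Dep 1 and to at most 1.56 in all other libraries of experiment 1, and without Dep 1 the log2 fold change of Cirbp was -0.42 (FDR = 0.054).

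Dep and Post differed for Cirbp in the same way. Cirbp fell by 0.46 on the log2 scale from the Post to Dep (interval -0.68 to -0.24, FDR = 0.00199, edgeR), with no overlap, and this call held in every fit tried and without each library in turn. Rbm3 was at -0.20 (FDR = 0.20) although its libraries did not overlap either. A share of 24.6% of clusters was called in this comparison, 11.3% as lower in Dep. Set against Pre, the Dep group was at -0.21 for Rbm3 (interval -0.43 to 0.01, FDR = 0.16) and -0.18 for Cirbp (interval -0.40 to 0.04, FDR = 0.24), neither called, beside 25.8% of clusters. Between the groups without torpor, HiT, Fed and Dep, neither promoter was called in any of the 3 pairs, the largest difference being 0.27 for Rbm3 in Dep over HiT (interval 0.05 to 0.49, FDR = 0.068). Of all clusters 26.5% were called between Dep and HiT, 38.6% between Dep and Fed and 43.2% between HiT and Fed. The Rbm3 difference between Dep and HiT passed the threshold without Mid 2, Mid 6, Mid 8 or HiT 1 (lowest FDR = 0.0084). The comparisons above share groups and are not independent of one another, and a lack of overlap in them was not set against that of all clusters.

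**Figure D3:**
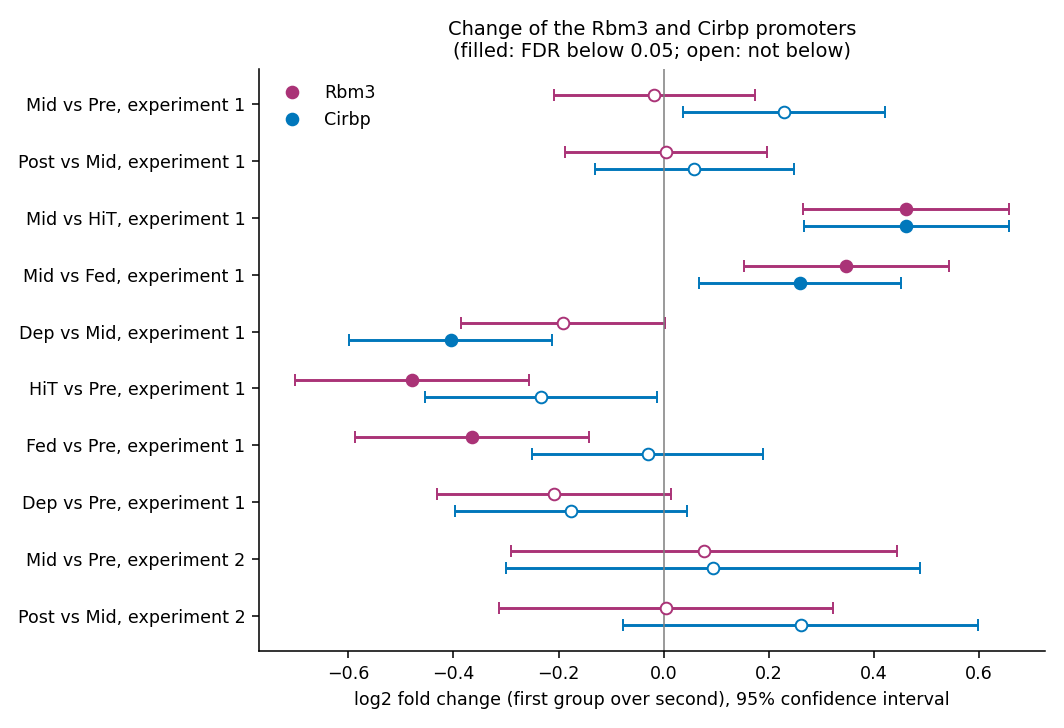
Log2 fold change (x axis) of the Rbm3 and Cirbp promoters in 10 comparisons (y axis), the first group over the second, with 95% confidence intervals from edgeR. Filled points have an FDR below 0.05. Both promoters are called from the HiT to Mid, at 0.46 each, and neither in experiment 2, where the intervals are wider.

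Experiment 2 repeated the Pre, Mid and Post states. Rbm3 was at 64.6 and 60.1 CPM in the Pre, 57.8, 66.7, 69.2, 76.1 and 59.1 in the Mid, and 68.4, 79.8 and 49.9 in the Post libraries. Cirbp was at 80.01 and 89.7 in the Pre, 74.6, 81.2, 102, 86.4 and 108 in the Mid, and 120, 122 and 83.1 in the Post libraries. The groups overlapped for both genes. From the Pre to Mid the log2 fold change was 0.08 for Rbm3 (interval -0.29 to 0.44, FDR = 0.82, edgeR) and 0.09 for Cirbp (interval -0.30 to 0.49, FDR = 0.80), beside 9.74% of clusters called. From the Mid to Post it was 0.00 for Rbm3 (interval -0.31 to 0.32, FDR = 0.99) and 0.26 for Cirbp (interval -0.08 to 0.60, FDR = 0.29), beside 16.4% of clusters called. All Post libraries and Mid 13 were sequenced on the same lane and the others on another. With the lane as a term the Cirbp change from the Mid to Post was 0.00 (FDR = 0.997). That estimate rests on Mid 13, the only Mid library on the lane of the Post libraries and the highest of its group for Cirbp. From the Pre to Post the log2 fold change was 0.08 for Rbm3 (FDR = 0.92) and 0.35 for Cirbp (FDR = 0.55), beside 0.111% of clusters called. No Pre library shared a lane with a Post library, and over the alternative fits this Cirbp change ran from 0.02 to 0.52. The changes of Mid against Pre and of Post against Mid were tested for a difference between the experiments, and neither promoter passed (lowest FDR = 0.92, edgeR). None of the 10818 and 10819 clusters tested passed either, so that this result is not particular to the 2 promoters. The Pre to Post change was not tested in this way.

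The balance of the 2 genes was described by the log2 ratio of Rbm3 to Cirbp TPM, with a pseudocount of 0.1. Group means in experiment 1 were -0.47 ± 0.16 in Pre, -0.71 ± 0.20 in Mid, -0.77 ± 0.19 in Post, -0.73 ± 0.27 in HiT, -0.81 ± 0.33 in Fed and -0.50 ± 0.08 in Dep. With the Rbm3 and Rbm3-ps clusters summed the means were 0.10 in Pre, -0.12 in Mid, -0.17 in Post, -0.12 in HiT, -0.17 in Fed and 0.07 in Dep. The Pre and Dep means were the highest either way, with Rbm3 below Cirbp by itself and above it when summed. Of 18 pairs of groups over both experiments, none passed an exact permutation test (two-sided) after adjustment over the 18. The lowest p was 0.0286 for Post against Pre (difference -0.29) and for Dep against Post (0.27), the smallest value that 4 libraries against 4 allow, and adjusted p = 0.26 for each. A few pairs of 4 libraries against 4 at that smallest p could not have passed after adjustment over 18. For them the absence of a pass says little, as for experiment 2, where the smallest p possible was 0.0179. The pairs of experiment 1 with the Mid group, 8 libraries against 4, could reach p = 0.00202 and could have passed. Their lowest p was 0.0606, for Mid against Pre (exact permutation test, adjusted p = 0.31). Within the Mid group the ratio ran from -1.15 in Mid 2 to -0.45 in Mid 6.

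Across the 28 libraries of experiment 1 the log2 levels of Rbm3 and Cirbp went together (Pearson's r = 0.53, permutation p = 0.00342, adjusted over 12 relations 0.0137, and Spearman's rho = 0.57, permutation p = 0.00162, adjusted 0.00648). Without HiT 3 and Fed 1, the farthest in Rbm3, r was 0.56. When each library was taken as its deviation from its group mean the relation was gone (r = 0.03, permutation p = 0.89, and rho = 0.01, permutation p = 0.96). In the 10 libraries of experiment 2, r was 0.48 (permutation p = 0.17, adjusted 0.30) and 0.54 for deviations from group means (permutation p = 0.25), and without Post 6 and Post 7 it was 0.17 and 0.06.

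The Rbm3 and Rbm3-ps clusters correlated more closely in experiment 1, with r = 0.81 over 28 libraries (permutation p = 1e-05, the smallest that 100000 resamples give, adjusted 0.00012) and rho = 0.84. Without HiT 3 and Fed 1 this r was 0.69. Because the tags of the 2 clusters cannot be fully told apart, their correlation cannot be read as co-expression of 2 genes. For deviations from group means r was 0.59 (permutation p = 0.0247, adjusted 0.0592) and rho 0.63 (permutation p = 0.00255, adjusted 0.00765). Without HiT 1 and HiT 3 the r of these deviations was 0.41. In experiment 2, r was 0.45 (permutation p = 0.19) over levels of 4.23 to 6.31 CPM at Rbm3-ps, that is 46 to 108 tags, and 0.06 without Post 6 and Post 7. Cirbp and Rbm3-ps had r = 0.58 in experiment 1 (permutation p = 0.00061, adjusted 0.00366). For deviations from group means their r was 0.09 (permutation p = 0.68). In experiment 2 their r was 0.45 (permutation p = 0.20), and 0.79 for deviations (permutation p = 0.0113, adjusted 0.0339).

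**Figure D4:**
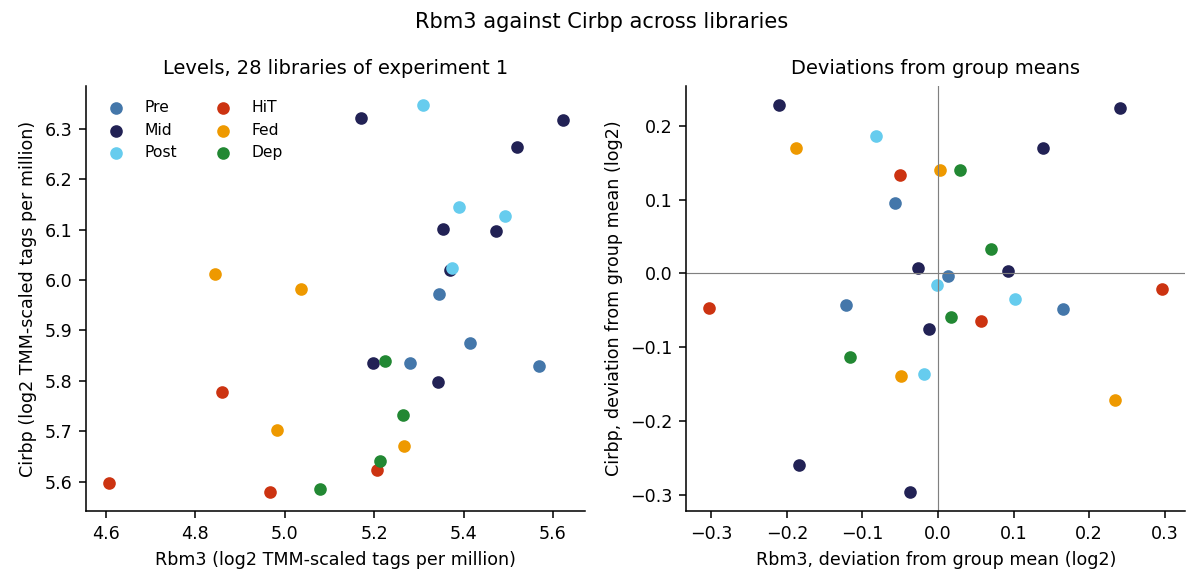
Left, log2 TMM-scaled CPM of Rbm3 (x axis) and Cirbp (y axis) in the 28 libraries of experiment 1, coloured by group. Right, the same libraries as deviations from the mean of their group. The levels have r = 0.53 and the deviations r = 0.03.

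The genes whose log2 level over the 28 libraries was most like that of Rbm3, among 9440 other clusters of annotated genes with a mean of at least 1 CPM, were Rbm3-ps (r = 0.81), Psma4 (0.77), a proteasome subunit, Bcam (0.74), a laminin-binding adhesion protein, Crispld1 (0.73) and Myoz2 (0.73), a Z-disc protein of slow fibres. In the 10 libraries of experiment 2 their r was 0.45, 0.15, 0.39, 0.63 and -0.03. The least alike were Trim47 (-0.76), Anxa3 (-0.75), Padi2 (-0.74), Jun (-0.74), the AP-1 factor, and Fbn1 (-0.72), the fibrillin of the extracellular matrix, with r of 0.50, -0.67, 0.24, -0.18 and -0.24 in experiment 2. Cirbp stood at place 275 of this order. The first place of Rbm3-ps cannot be read as co-expression, since its tags cannot be fully told from those of Rbm3.

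Most like Cirbp were Nudt16 (r = 0.77), a decapping enzyme, Mir22hg (0.76), Zfp68 (0.71), Nr1d1 (0.70), the clock repressor REV-ERBα, and Akt1s1 (0.68), an inhibitor of mTOR complex 1. In experiment 2 these had r of 0.60, 0.54, -0.06, 0.53 and -0.05. Least alike were Myadm (-0.76), Sdf2l1 (-0.71), Wdr82 (-0.70), Mrto4 (-0.69) and Jun (-0.69), with -0.49, -0.38, -0.25, -0.10 and -0.59 in experiment 2. The median r of all clusters was -0.02 with Rbm3 and -0.01 with Cirbp in experiment 1. All of these are correlations of 28 libraries that share group differences and depth, and the gene lists were picked by their r.

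Other genes of the same protein families or of the temperature response were counted for comparison. Of 22 relatives with an RNA recognition motif and a glycine- or RG-rich tail and hnRNPs, 21 had a cluster, all but Hnrnph1. From the HiT to Mid 1 was higher, 5 were lower and 15 were not called, beside 41% of all clusters called (19.2% as higher), with a median log2 fold change of -0.11 against 0.02 over all clusters. The 1 that was higher, Hnrnpa1, which binds many mRNAs, was 1.21-fold higher (FDR = 0.00945, edgeR). Rbmxl1 fell by 0.50 (FDR = 2.75e-06) and Hnrnpc by 0.42 (FDR = 0.000157) on the log2 scale from the HiT to Mid, so that these RNA-binding proteins went opposite to Rbm3 and Cirbp. Rbmxl1 is a near copy of Rbmx and Hnrnpa1 has many processed copies, which makes their tags uncertain. From the Pre to Mid 8 of the 21 were higher and none lower, beside 30.2% of all clusters called in either direction (median 0.12 against 0.01), led by Hnrnpl (1.38-fold, FDR = 0.00517) and Hnrnpa0 (1.33-fold, FDR = 0.0443). Against Fed 5 were higher in Mid and none lower, beside 35.2% of clusters called (16.6% as higher), and from the Mid to Dep none was called, beside 2.03%. Without TMM both of these higher counts, from the Pre and from the Fed group, were 0.

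Of 8 genes with a cold shock domain, the domain of the bacterial cold shock proteins, 4 had a cluster. From the HiT to Mid 1 was higher, 1 lower and 2 not called, a share near the 41% of all clusters. Ybx3 was 1.43-fold higher in Mid than in HiT (FDR = 0.0350, edgeR) and Carhsp1 1.57-fold lower (log2 fold change -0.65, FDR = 1.01e-06). None of the 4 was called against Fed or Dep, beside 35.2% and 2.03% of all clusters called.

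Of 14 known regulators, partners and targets of the pair, 8 had a cluster. Of these 1 was higher and 1 lower from the Pre to Mid (30.2% of all clusters called), 1 higher and 2 lower from the HiT to Mid (41%), 1 higher and 3 lower from the Fed to Mid (35.2%), and none was called from the Mid to Dep (2.03%). Clock, whose polyadenylation and level in cells depend on Cirbp, was 1.24-fold higher in Mid than in Pre (31.3 against 25.3 CPM, FDR = 0.0132, edgeR). Txn1, thioredoxin, fell by 0.25 from the Pre to Mid (FDR = 0.0308) and was 1.51-fold lower in Mid than in HiT (115 against 173.5 CPM, FDR = 4.81e-06). Vegfa, the angiogenic growth factor, was 1.36-fold higher in Mid than in HiT (FDR = 0.00128) and lower in Mid than in Fed (log2 fold change -0.49, FDR = 0.000487). Prmt1, an arginine methyltransferase of RNA-binding proteins, was lower in Mid than in HiT (-0.39, FDR = 0.000423) and than in Fed (-0.23, FDR = 0.0253). Tnpo1, the importer of Cirbp to the nucleus, was called only against Fed (log2 fold change 0.26, FDR = 0.0387), as was Hsf1, the heat shock factor (-0.27, FDR = 0.0425).

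The heat shock genes, which are raised by warming, are measured by 21 of 21 clusters. From the HiT to Mid 2 were higher, 10 lower and 9 not called, beside 41% of all clusters called (19.2% as higher), with a median of -0.17 against 0.02 over all clusters. Hspb1 fell by 1.13 (820 against 375 CPM, FDR = 5.28e-08, edgeR) and Dnaja1 by 1.11 (37.8 against 17.6, FDR = 2.14e-07) on the log2 scale, while Hspa1a was 1.61-fold and Bag3 1.24-fold higher in Mid (FDR = 0.0139 and 0.00396). From the Pre to Mid 5 were higher and 4 lower, beside 30.2% of clusters called, Hspb1 1.98-fold (FDR = 4.24e-06) and Hspa1a 1.79-fold (FDR = 0.00483) higher, Dnaja1 1.61-fold (FDR = 0.000300) and Chordc1 1.36-fold (FDR = 0.00112) lower. Hspa1a and Hspa1b are near copies, and their tags are uncertain. Against Fed 7 were higher in Mid and 3 lower, beside 35.2% of clusters called, and from the Mid to Dep 1 was higher, beside 2.03%. Without TMM the counts from the HiT to Mid were 1 higher and 3 lower, those from the Pre to Mid 2 and 2, and those against Fed 2 and 1.

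Of 18 splicing kinases and SR proteins, whose activity in cells follows temperature, 17 had a cluster. From the HiT to Mid 2 were higher and 3 lower, beside 41% of all clusters called, and from the Pre to Mid 3 were higher and none lower, beside 30.2%. Srsf5 was 1.55-fold higher in Mid than in HiT (FDR = 0.000213, edgeR) and 1.84-fold higher than in Pre (FDR = 9.60e-06), and Clk4 1.29-fold and 1.52-fold (FDR = 0.00850 and 0.000194). Srpk1 and Srsf7 were lower in Mid than in HiT, by 0.67 (FDR = 0.000126) and 0.49 (FDR = 1.77e-05) on the log2 scale. Against Fed 2 were higher in Mid and 3 lower, beside 35.2% of clusters called, and from the Mid to Dep 1 was lower, beside 2.03%.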

How the data were processed

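nAnT-iCAGE libraries of soleus muscle from 38 mice were used. After trimming, the authors aligned reads to mm10 by bwa and hisat2 and joined the 5′ ends into clusters, and per the file headers the deposited counts are rescued tag counts of 10819 clusters without normalization. How rescue divided tags of near-identical copies is not given in the sources used here. The TPM values deposited by the authors scale those counts to the whole library.

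Counts were tested with edgeR 4.0.16 in R 4.3.3 (quasi-likelihood F test, TMM, group as the only term, all clusters with any tag, each experiment by itself, FDR threshold 0.05) and with DESeq2 1.42.0. Only the edgeR fit was tried on simulated data. TPM ratios were compared by exact permutation tests and correlations by 100000 permutations. Coordinates count from 1. The promoters, lists and tests were chosen with earlier results of these data known. The genes named from a list are those called from the HiT to Mid or from the Pre to Mid with the 2 largest changes in each direction, and Tnpo1 and Hsf1 were named after their values were seen. A result for 1 gene that this rule names is not reported here. Summing Rbm3 and Rbm3-ps and the lane term were added after seeing the data. Over 72 pairs of libraries within groups the lowest chi-square per cluster was 12.4, far above sampling noise, and each counts as a sample. Alternatives were DESeq2, the likelihood ratio test, filterByExpr, no TMM, upper-quartile scaling, fits of the compared groups or of all 38 libraries, the replicate block and each library left out.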

Additional observations from a re-analysis of the deposited data

Results flagged for a closer look

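Groups of 4 to 8 libraries were searched for a library far from the others, over the levels of Rbm3, Cirbp and Rbm3-ps, the ratio of Rbm3 to Cirbp and the Rbm3-ps share, and 1 of 35 groups held one. In the Mid group of experiment 1, Mid 2 had a log2 ratio of Rbm3 to Cirbp of -1.15, below the other 7 Mid libraries at -0.75 to -0.45. Mid 2 had the lowest Rbm3 level and the highest Cirbp level of its group, 36.0 and 80.1 TMM-scaled CPM. Chance alone gives about 1 in 20 such groups. Without Mid 2 the ratio still passed in no comparison (lowest adjusted p = 0.19, exact permutation test).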

How the results depend on the processing

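The higher levels of both promoters in Mid than in HiT kept their calls in all alternatives, as did Rbm3 from the Pre to HiT and Cirbp from the HiT to Post and from the Post to Dep. Of the other log2 fold changes in experiment 1, without TMM Rbm3 lost its call for Mid against Fed (0.22, FDR = 0.41), Fed against Pre (-0.32), Post against HiT (0.55, FDR = 0.059) and Post against Fed (0.24) and turned for Dep against Fed (-0.079). Cirbp then lost Mid against Fed (0.15), Dep against Mid (-0.52, FDR = 0.21) and Post against Fed (0.23), gained HiT against Fed (-0.42, FDR = 0.047) and stood at 2.38e-05 for Fed against Pre. With only the compared groups fitted, Rbm3 lost Fed against Pre (-0.37, FDR = 0.060), gained Dep against Post (-0.21, FDR = 0.041) and turned for Post against Pre (0.00725), and Cirbp lost Mid against Fed (0.24), Dep against Mid (-0.41) and Post against Fed (0.33) and gained HiT against Pre (-0.25). With all 38 libraries, Rbm3 stood at 0.000561 for Mid against Pre and 0.0298 for Post against Pre, and Cirbp lost Mid against Fed (0.22) and Dep against Mid (-0.37) and gained Post against Pre (0.33, FDR = 0.033, in 1 fit with experiment 2). Upper-quartile scaling took away Mid against Fed (0.21) and added HiT against Pre (-0.31) for Cirbp and added Dep against HiT (0.28) for Rbm3, as did DESeq2 (0.29). Summing Rbm3 and Rbm3-ps, chosen after seeing the data, turned Post against Pre (0.0126), Post against Mid in experiment 2 (-0.0066) and the ratio for Mid against HiT (-0.0019). The cause of these changes was not tested.

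Same-numbered libraries of different groups did not deviate together (60 pairs, median r -0.01, 20 of them over 0.1), and the numbers were not taken to pair the mice. With the replicate block, Rbm3 lost Fed against Pre (-0.36, FDR = 0.057), and Cirbp gained Mid against Pre (0.32, FDR = 0.021) and turned for Post against Mid (-0.0282). Mid 5 to Mid 8 share no number with another group and add nothing to this fit.

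With each library left out in turn, Rbm3 ran from -0.0574 to 0.0407 for Mid against Pre, -0.0299 to 0.0415 for Post against Mid, -0.0524 to 0.0457 for Post against Pre, -0.45 to -0.31 for Fed against Pre, 0.20 to 0.41 for Dep against HiT and 0.29 to 0.44 for Post against Fed, and in experiment 2 from -0.15 to 0.17 for Post against Mid and -0.0739 to 0.26 for Post against Pre. Cirbp ran from 0.20 to 0.28 for Mid against Pre, -0.00754 to 0.10 for Post against Mid, 0.20 to 0.33 for Mid against Fed, -0.46 to -0.37 for Dep against Mid, -0.0878 to 0.025 for Fed against Pre and 0.25 to 0.39 for Post against Fed. The difference in the log2 ratio ran from -0.078 to 0.0437 for Dep against Pre, -0.12 to 0.0343 for Post against Mid, -0.0659 to 0.12 for Mid against HiT, -0.0244 to 0.23 for Mid against Fed, -0.12 to 0.0695 for Post against HiT, -0.0796 to 0.17 for Post against Fed, -0.0435 to 0.21 for HiT against Fed and, in experiment 2, -0.14 to 0.12 for Mid against Pre.

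Without TMM the clusters called from the Pre to Mid fell from 3253 to 1458, from the Mid to Post from 3771 to 1630, from the HiT to Mid from 4422 to 2323 and from the Fed to Mid from 3797 to 2181. For Dep against Mid 219 clusters became 479 with DESeq2, 343 with the likelihood ratio test, 407 with the block, 9 without TMM and 2 with those groups alone. In experiment 2 the 1053 clusters for Mid against Pre became 4009 with all 38 libraries and 555 on the shared lane, and the 1772 for Post against Mid became 4527 with all 38 libraries and 485 with the lane as a term. The counts of list genes called, compared after seeing the data, moved most without TMM. Over the alternatives heat shock genes higher in Mid numbered 2 to 5 against Pre and 2 to 8 against Fed, those lower than in HiT 3 to 10, regulators higher than in Pre 0 to 2, and splicing genes higher than in Fed 0 to 2 and lower 1 to 4. Each gene has 1 cluster, which leaves no share per promoter to compute, and depth limits Rbm3-ps most, at 46 to 108 tags in experiment 2.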
